A study of Homo sapiens with 12 samples.

Results

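Cytosolic RNA sensors and their helper helicases are the proteins with which a cell detects foreign RNA. Expression of 8 such genes (RIGI, IFIH1, DHX58, MAVS, TLR3, DDX60, HELZ2 and ZNFX1) was followed in A549 cells transfected with SEMA5A plasmids; this gene encodes a semaphorin of the cell membrane. The members were chosen with earlier results of these data known, and their probes were found by gene symbol in the platform annotation. This gave 10 of the 47323 probes on the array and 8 of 20046 genes with a symbol. MAVS and TLR3 had 2 probes each and the other genes 1. The labelled cells, A549, are an established human non-small cell lung cancer line. The 4 groups were cells given the plasmid SEMA5A_Full (full-length protein, here Full), SEMA5A_ECD (extracellular domain, ECD), SEMA5A_ICD (intracellular domain, ICD) or SEMA5A_Empty (control plasmid, Empty). All received the same transfection reagent, jetPRIME, and RNA was taken at 24 h. With 3 single-colour bead arrays a group and 12 altogether, precision is limited.

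In these pathways RIG-I (encoded by RIGI) and MDA5 (IFIH1) bind double-stranded or triphosphate-ended RNA in the cytosol and pass the signal to MAVS, an adaptor on mitochondria that leads to activation of the kinase TBK1 and of the transcription factors IRF3 and IRF7. TLR3 detects double-stranded RNA in endosomes and signals through TICAM1. The resulting type I interferon is known to raise transcription of most of the sensors themselves, a feed-forward loop that was described in many epithelial and immune cells.

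Between 18659 and 20366 probes per array had a detection p under 0.05, here called above background. Replicates are numbered in the labels, but separate transfections are not stated, so the spread behind each p-value may be technical. SEMA5A was read by 2 probes with 0 of 24 values above background, so neither the labels nor the amount of construct could be checked. Of the epithelial markers, KRT8 and KRT18 were above background on all 12 arrays, EPCAM on 4, and KRT19 and CDH1 on none. Of the leukocyte markers, CD14 was above background on 5 arrays, PTPRC and LYZ on 1 each and CD3E on none. Among fibroblast and endothelial markers, COL1A1 was above background on 4 arrays and COL3A1, PDGFRA, PECAM1, CDH5 and VWF on none. The summed intensity of the 9 leukocyte probes was 873.7 to 927.7 with Full, 906.2 to 918.8 with ECD, 875.2 to 919.9 with ICD and 874.5 to 901.9 with Empty. Differences were tested with limma on normalized log2 intensities and called at an adjusted p under 0.05 over the 18728 probes that were above background on all 3 arrays of at least 1 group. Of the 10 sensor probes 7 entered, for 7 of the 8 genes. TLR3 entered through the ECD arrays alone, and RIGI and DDX60 through the arrays of the SEMA5A constructs. In bulk RNA, more responding cells and more RNA per cell cannot be told apart.

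RIGI, the sensor of short and triphosphate-ended RNA, had intensities of 145.2, 146.1 and 139 with Full, 264, 293.9 and 253.3 with ECD, 126.8, 132.4 and 151.6 with ICD, and 102.2, 107.8 and 99.1 with Empty. It was above background on all 9 arrays of the SEMA5A constructs and on none of the Empty arrays, and the ECD arrays lay above all others. Its change was therefore given as a bound, which holds only on the background-corrected scale. There the dim arrays stand at their lowest normalized signal that counted as above background, or at the probe's signal if that was greater. The adjusted p beside a bound belongs to the fitted difference, not to the bound. RIGI was at least 2.44-fold higher with Full (limma adjusted p = 7.8e-06), at least 6.48-fold higher with ECD (adjusted p = 6.7e-10) and at least 2.12-fold higher with ICD (adjusted p = 7.4e-05) than with Empty. On the log2 scale these bounds are 1.29, 2.695 and 1.08. Without background correction the log2 differences were smaller, at 0.49, 1.26 and 0.41.

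IFIH1, the sensor of long double-stranded RNA, was measured on all 12 arrays. Its intensities were 409.8, 501.2 and 324.3 with Full, 1173.8, 1309 and 1100.3 with ECD, 343.1, 333.1 and 371.8 with ICD, and 187.7, 190.6 and 171.8 with Empty. No array of a SEMA5A construct overlapped the Empty arrays, as held for 10.7% of genes with Full, 22.7% with ECD and 19.5% with ICD in this direction, while Full and ICD overlapped each other. IFIH1 was 3.23-fold higher with Full, 9.88-fold with ECD and 2.60-fold with ICD than with Empty (log2 1.69, 3.30 and 1.38, each ± 0.13 SE, n = 3; limma adjusted p = 1.4e-06, 1.3e-10 and 3.1e-05). The Full arrays spread most, with an SD of 0.31 on the log2 scale, against 0.11 with ECD, 0.08 with ICD and 0.03 with Empty.

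DHX58 encodes LGP2, a related helicase without the signalling domains, which is known to regulate the other sensors. It was above background on 1 of 12 arrays, ECD replicate 2, and did not enter the test. Its intensities were 104, 108.7 and 98.9 with Full, 109.8, 115.4 and 107.6 with ECD, 101.1, 96.5 and 93.2 with ICD, and 92.3, 97.9 and 93.6 with Empty. The ECD and Full arrays did not overlap the Empty arrays, all of them near the background level. Among genes that entered the test, 22.7% with ECD and 10.7% with Full were separated in this direction, so this was common. As only 1 of the 3 ECD arrays was above background, no bound on its change from Empty is given. When all 47323 probes were tested without a detection filter, the log2 difference between ECD and Empty was 0.43 ± 0.08 (SE, n = 3 each; limma adjusted p = 0.015), and those with Full and ICD were 0.21 (adjusted p = 0.45) and 0.07 (adjusted p = 0.82).

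**Figure D1:**
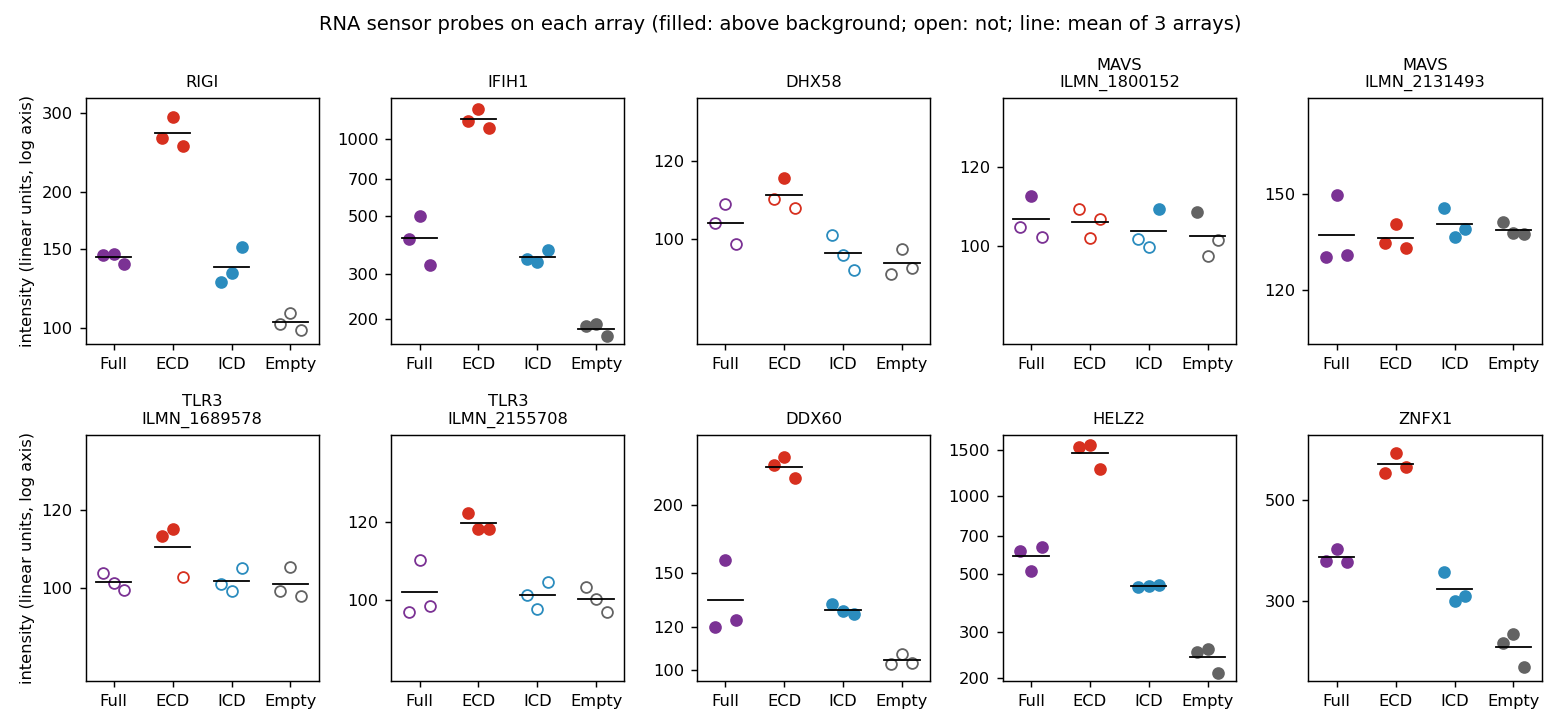
Intensity of each of the 10 probes (linear units, log axis with its own range in each panel) on the 12 arrays, by group, with points filled where the probe was above background and a line at the mean of 3 arrays. RIGI, IFIH1, DDX60, HELZ2 and ZNFX1 were highest on the ECD arrays and lowest on the Empty arrays, while the MAVS arrays of different groups lay close together.

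MAVS, the shared adaptor of RIG-I and MDA5, did not pass the test in any comparison. By the probe that entered (ILMN_2131493) its intensities were 129.5, 149.7 and 130 with Full, 133.7, 139.9 and 132.3 with ECD, 145.1, 135.8 and 138.3 with ICD, and 140.6, 136.8 and 136.7 with Empty. All 12 arrays were above background and the groups overlapped in raw intensity. The log2 difference from Empty was -0.09 with Full (95% interval -0.32 to 0.14; limma adjusted p = 0.75), -0.29 with ECD (-0.52 to -0.06; adjusted p = 0.090) and 0.02 with ICD (-0.21 to 0.25; adjusted p = 0.95), n = 3 arrays each. After normalization the 3 ECD arrays lay below the 3 Empty arrays, as did 16.8% of genes. Of the alternatives tried, the ECD value passed the test only when the ECD and Empty arrays were fitted alone, with a limma adjusted p of 0.046, the lowest of a range of 0.046 to 0.40. The second MAVS probe (ILMN_1800152) was above background on 3 of 12 arrays, 1 each with Full, ICD and Empty, and did not enter.

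TLR3, the endosomal receptor, was near background. By ILMN_2155708 its intensities were 97.2, 109.8 and 98.7 with Full, 122.6, 118.2 and 118.1 with ECD, 101.1, 98 and 104.4 with ICD, and 103.1, 100.2 and 97.2 with Empty. The 3 ECD arrays were above background and above all 9 others, none of which was above background. TLR3 was at least 1.30-fold higher with ECD than with Empty (limma adjusted p = 0.0012). Its entry and this call rest on the same ECD arrays, so the call is no separate support for a rise. The log2 differences of this probe from Empty were 0.02 with Full (adjusted p = 0.95) and 0.05 with ICD (adjusted p = 0.82), between values that were all below background. The second probe (ILMN_1689578) was above background on 2 of the 3 ECD arrays, with 112.9, 114.6 and 102.6, and on no other array. It did not enter the test, and the groups overlapped.

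The helicases that work beside the sensors were next. DDX60, an interferon-induced helicase reported to assist RIG-I, had intensities of 119.7, 158.8 and 123.4 with Full, 236.1, 243.6 and 223.1 with ECD, 132, 128.1 and 126.6 with ICD, and 102.9, 107.2 and 103.1 with Empty. It was above background on all arrays but those of Empty. DDX60 was at least 1.93-fold higher with Full, at least 5.22-fold with ECD and at least 1.84-fold with ICD than with Empty (limma adjusted p = 0.0023, 5.5e-08 and 0.0026). On the log2 scale these bounds are 0.95, 2.38 and 0.88. Without background correction the log2 differences were smaller, at 0.34, 1.04 and 0.31. Full replicate 2 lay above the other Full arrays, and without it the log2 difference between Full and Empty was 0.83, against 1.07 with all arrays. DDX60L, the closely related neighbouring gene, was above background on the 3 ECD arrays, on 1 Full array and on no ICD or Empty array. It was at least 2.09-fold higher with ECD than with Empty (limma adjusted p = 1.5e-07). DDX60L entered through the ECD arrays alone, so its entry and this call rest on the same arrays. Whether the probes of this pair tell the copies apart was not tested.

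HELZ2, a large helicase and nuclear receptor coactivator that is induced by interferon, had intensities of 617, 515 and 635.5 with Full, 1545.9, 1563.4 and 1265.5 with ECD, 447.9, 450.9 and 454.7 with ICD, and 252.6, 258.4 and 209.8 with Empty. The groups did not overlap in any pair. Between Full and ICD this held, in this direction, for 10.2% of genes. Against Empty it held for 10.7% of genes with Full, 22.7% with ECD and 19.5% with ICD. For ECD against the other constructs no share of genes is given. HELZ2 was 3.19-fold higher with Full, 7.85-fold with ECD and 2.31-fold with ICD than with Empty (log2 1.67, 2.97 and 1.21, each ± 0.13 SE, n = 3 each; limma adjusted p = 1.9e-06, 5.6e-10 and 0.00011).

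ZNFX1, a helicase with zinc fingers that has been described as a sensor of double-stranded RNA at mitochondria, moved in the same order by less. Its intensities were 368.1, 390.3 and 365.8 with Full, 573.1, 634.2 and 592.4 with ECD, 347.9, 300.5 and 307.7 with ICD, and 243, 253.8 and 215.1 with Empty. As with HELZ2, no pair of groups overlapped, and the same shares of all genes stand beside this. The change from Empty was 1.91-fold with Full, 2.90-fold with ECD and 1.49-fold with ICD (log2 0.93, 1.53 and 0.57, each ± 0.10 SE, n = 3 each; limma adjusted p = 1e-04, 1.2e-07 and 0.0060).

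In all, of the 7 members tested, 5 were called higher with Full, 6 with ECD and 5 with ICD, and 0 lower. The call added with ECD was that of TLR3, which entered through the ECD arrays alone. RIGI and DDX60 entered only through the arrays of the SEMA5A constructs. Their entry and their calls against Empty thus rest on the same arrays, so these calls are no separate support. IFIH1, HELZ2 and ZNFX1 were above background on every array. By the same test, with the brightest entering probe of each gene, 0.971% of 10912 genes were called higher with Full, 7.06% with ECD and 3.93% with ICD, and 0.238%, 3.84% and 1.99% were called lower. These 3 comparisons share the Empty arrays. Among the 10912 genes ranked by log2 change with Full, 0.119% had a larger change than IFIH1, 0.128% than HELZ2, 0.183% than RIGI, 0.330% than DDX60 and 0.376% than ZNFX1. With ECD the shares above these 5 genes were 0.0733%, 0.119%, 0.137%, 0.202% and 0.412%. With ICD they were 0.0825%, 0.119%, 0.101%, 0.192% and 1.02%. Because the members were chosen with earlier results of these data known, these counts and ranks describe them and are no independent support. The values depended on the background correction, above all for the dim probes. Without it, as in the authors' log2 values, the log2 differences from Empty were 0.49 with Full, 1.26 with ECD and 0.41 with ICD for RIGI, 0.34, 1.04 and 0.31 for DDX60, and 1.17, 2.57 and 0.92 for IFIH1, with the same calls.

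**Figure D2:**
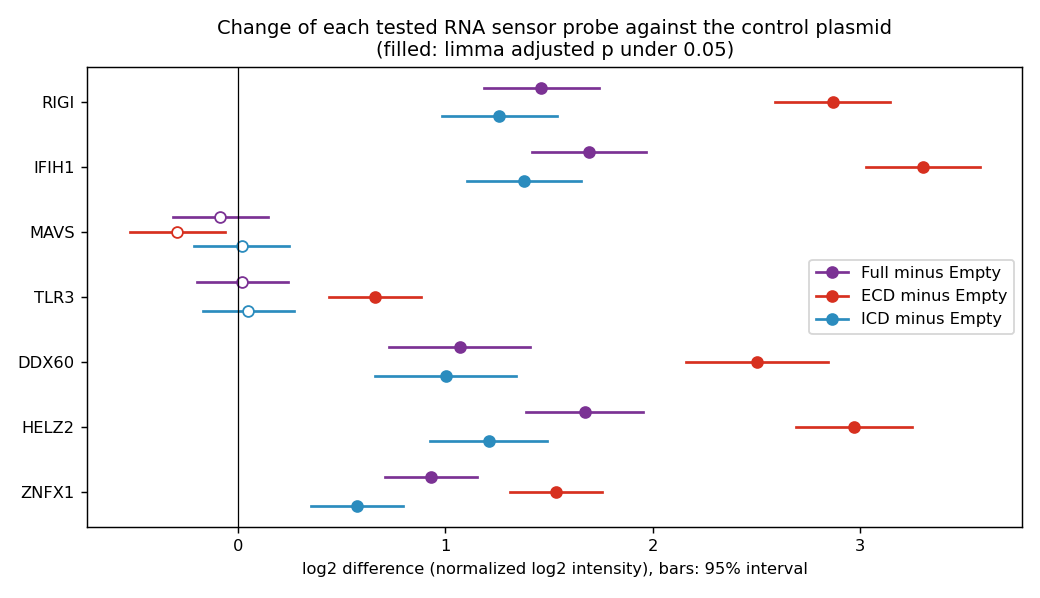
Log2 difference from Empty of the 7 probes that entered, for Full, ECD and ICD, with 95% intervals from the limma fit (n = 3 arrays each) and filled points where the adjusted p was under 0.05. The ECD points of RIGI, IFIH1, DDX60, HELZ2 and ZNFX1 lie right of the Full and ICD points, and the MAVS points are open.

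The constructs were then set against each other, which for RIGI, DDX60 and IFIH1 compares groups that were all above background. ECD gave more than ICD for 6 of the 7 members tested, of which TLR3 entered through the ECD arrays alone. RIGI was 3.05-fold, IFIH1 3.80-fold, DDX60 2.83-fold, HELZ2 3.40-fold and ZNFX1 1.95-fold higher with ECD than with ICD (limma adjusted p of 1.7e-07 to 4.6e-05, n = 3 each). The sizes for the dim RIGI and DDX60 probes still depended on the background correction. Their log2 differences were 1.61 and 1.50 with it and 0.85 and 0.73 without it, still called. TLR3 was at least 1.32-fold higher (limma adjusted p = 0.0042), a call that ended without background correction (adjusted p = 0.065, the highest of a range of 0.0024 to 0.065). Of all genes 1.24% were called higher and 0.486% lower in this comparison. MAVS differed by -0.31 on the log2 scale (95% interval -0.54 to -0.08; limma adjusted p = 0.21).

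Full gave less than ECD alone for the same 6 genes, with the same limit on TLR3, which entered through the ECD arrays alone. RIGI was 2.65-fold, IFIH1 3.06-fold, DDX60 2.71-fold, HELZ2 2.46-fold and ZNFX1 1.52-fold lower with Full than with ECD (limma adjusted p of 5.3e-06 to 0.0029, n = 3 each), and TLR3 was at least 1.29-fold lower (adjusted p = 0.0022). Without background correction the log2 differences of RIGI and DDX60 were -0.77 and -0.70, against -1.41 and -1.44 with it, still called. Of all genes 12.3% were called lower and 6.30% higher with Full than with ECD, so calls were common in this comparison. MAVS differed by 0.21 (95% interval -0.02 to 0.44; limma adjusted p = 0.19).

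Between Full and ICD 0 members were called by limma, where 1.50% of genes were called higher and 3.21% lower. IFIH1, HELZ2 and ZNFX1, 3 members, had an unadjusted p under 0.05. The log2 difference was 0.46 for HELZ2 (95% interval 0.18 to 0.75; limma adjusted p = 0.056), 0.36 for ZNFX1 (0.14 to 0.58; adjusted p = 0.060) and 0.32 for IFIH1 (0.04 to 0.59; adjusted p = 0.15). For RIGI it was 0.20 (-0.07 to 0.48; adjusted p = 0.35) and for DDX60 0.07 (-0.27 to 0.41; adjusted p = 0.83). HELZ2 and ZNFX1 were called higher with Full under several other settings, at adjusted p of 0.0089 to 0.16 and 0.018 to 0.19 over their alternatives, and without Full replicate 2 the calls were these 2 genes. IFIH1 was called without Full replicate 3 (adjusted p = 0.037), and ZNFX1 without ICD replicate 1 (adjusted p = 0.043). The order of levels was thus ECD, then Full and ICD, then Empty for RIGI, IFIH1, DDX60, HELZ2 and ZNFX1, with Full and ICD not separated by the test although their HELZ2 and ZNFX1 arrays did not overlap.

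Because Full joins the other constructs' parts, its change was also set against the sum of theirs on the log2 scale. The sum exceeded the measured change for 6 members, but for TLR3 additivity could not be measured. Its Full, ICD and Empty arrays were all below background, so its value only restates the ECD difference. The measured change minus the sum was -2.66 ± 0.18 for RIGI, -2.99 ± 0.18 for IFIH1, -2.44 ± 0.23 for DDX60, -2.51 ± 0.19 for HELZ2, -1.17 ± 0.15 for ZNFX1 and -0.69 ± 0.15 for TLR3 (SE, n = 3 arrays in each of 4 groups; limma adjusted p of 1.2e-07 to 0.0049). For MAVS it was 0.19 ± 0.15 (limma adjusted p = 0.39). Of all genes 14.9% were called below and 8.08% above the sum, so a departure was common on these arrays. RIGI, DDX60 and TLR3 were not above background with Empty, so the sizes for these 3 genes depend on the background correction. Without it they were -1.18, -1.01 and -0.22, still called.

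**Figure D3:**
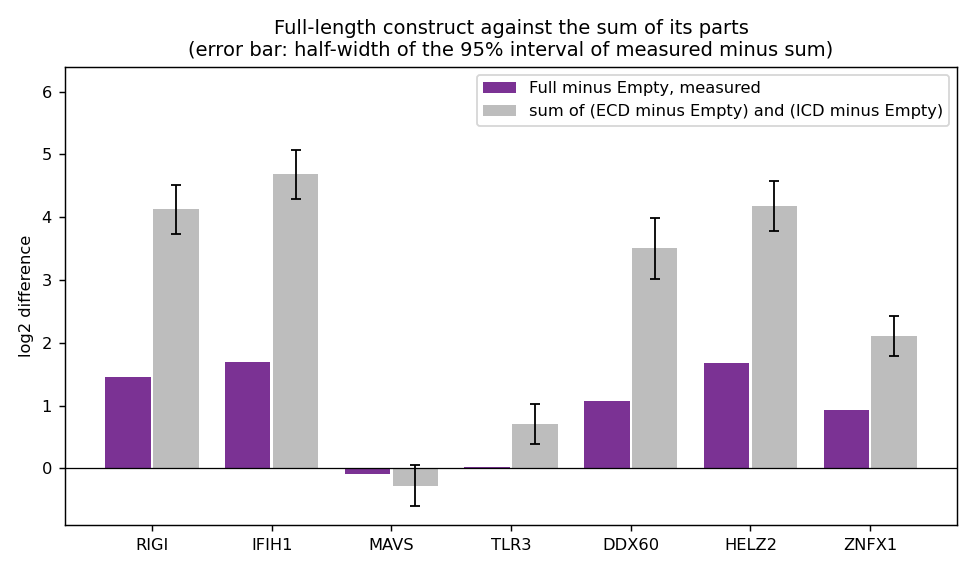
Measured log2 difference between Full and Empty beside the sum of the ECD and ICD differences, for the 7 genes that entered, with a bar on the sum for the half-width of the 95% interval of measured minus sum. The measured bar is below the sum for RIGI, IFIH1, TLR3, DDX60, HELZ2 and ZNFX1.

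The regions around the start sites of these genes are shown because RIGI, IFIH1, DDX60 and HELZ2 moved together while MAVS did not pass the test. RefSeq promoters of the assembly GRCh38.p14 were listed for 6 members in 7 windows of 300 bases, 250 before the start site and 50 from it. DHX58 and ZNFX1 had no entry. The interferon-stimulated response element, to which IRF proteins and the interferon-activated complex ISGF3 bind, has a core of GAAA, any 2 bases, and GAAA again. It was searched on both strands and found in 3 of the 6 genes and in 3.57% of 35116 promoters. IFIH1 held 3 matches, of which the pair at bases -159 to -144 on the opposite strand overlap each other, and the other lies at -21 to -12. DDX60 held matches at -88 to -79 and at -53 to -44. TLR3 held 1 across the start site on the opposite strand. RIGI, MAVS and HELZ2 held none. A form with 1 base between the repeats was added after the RIGI sequence had been read and is no independent result. It occurs in RIGI at -203 to -195, in DDX60 at -58 to -50, overlapping another match, and in 3.12% of all promoters. Given on the gene's strand are 210 bases before the start site and 10 from it, with matches to either form in capitals, for IFIH1 (chr2:162318675-162318894, minus strand), DDX60 (chr4:168318743-168318962, minus strand), TLR3 (chr4:186068946-186069165, plus strand), RIGI (chr9:32526187-32526406, minus strand) and MAVS (chr20:3846624-3846843, plus strand).
IFIH1: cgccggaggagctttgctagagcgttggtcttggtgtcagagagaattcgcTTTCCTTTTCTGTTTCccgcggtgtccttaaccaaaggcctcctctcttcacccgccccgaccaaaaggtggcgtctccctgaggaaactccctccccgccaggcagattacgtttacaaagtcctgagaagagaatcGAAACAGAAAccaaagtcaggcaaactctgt
DDX60: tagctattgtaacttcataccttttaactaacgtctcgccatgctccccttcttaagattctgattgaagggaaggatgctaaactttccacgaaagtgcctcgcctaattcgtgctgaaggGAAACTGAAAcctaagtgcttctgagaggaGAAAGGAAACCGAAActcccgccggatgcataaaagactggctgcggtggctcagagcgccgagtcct
TLR3: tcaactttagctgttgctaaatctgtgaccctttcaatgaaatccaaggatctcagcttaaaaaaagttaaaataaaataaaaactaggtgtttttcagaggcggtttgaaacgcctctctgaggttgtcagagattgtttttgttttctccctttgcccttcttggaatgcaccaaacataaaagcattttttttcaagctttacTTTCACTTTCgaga
RIGI: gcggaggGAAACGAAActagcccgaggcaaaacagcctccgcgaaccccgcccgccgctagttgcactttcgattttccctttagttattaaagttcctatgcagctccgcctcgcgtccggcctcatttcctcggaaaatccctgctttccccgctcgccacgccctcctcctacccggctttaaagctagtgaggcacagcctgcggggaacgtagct
MAVS: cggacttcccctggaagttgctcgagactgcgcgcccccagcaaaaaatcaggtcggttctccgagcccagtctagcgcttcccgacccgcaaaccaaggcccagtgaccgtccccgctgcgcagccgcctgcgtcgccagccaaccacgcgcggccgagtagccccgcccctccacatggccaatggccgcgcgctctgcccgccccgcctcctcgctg
Whether the matches bear on the changes was not tested. IFIH1, DDX60 and TLR3, which held the 2-base form, were called higher with ECD, and MAVS, without a match, was not called. HELZ2 rose with every construct without a match in either of its windows, as did RIGI with the 1-base form only. TLR3 was near background and was not called with Full or ICD.

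**Figure D4:**
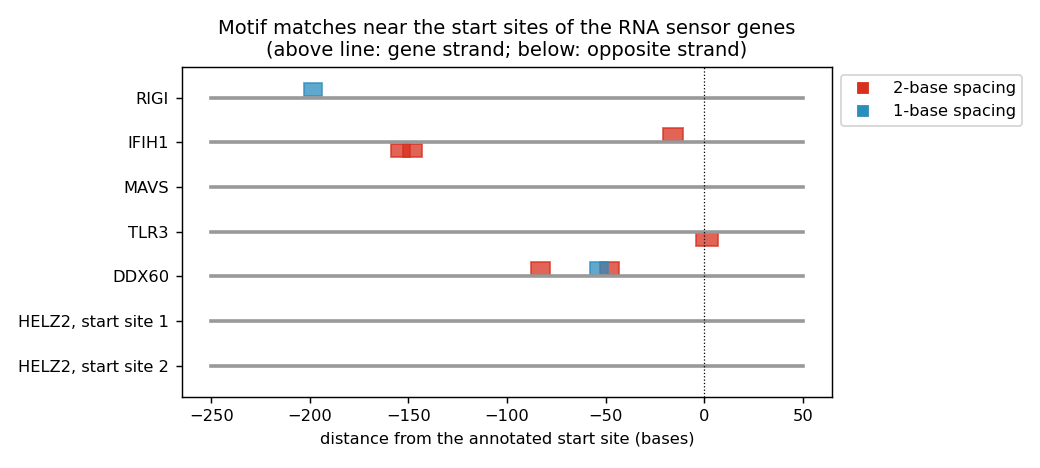
Positions of motif matches relative to the annotated start site (bases) in the 7 promoter windows of 6 genes, above the line for the gene's strand and below for the opposite strand, coloured by the number of bases between the repeats. IFIH1 has 3 matches with the 2-base spacing, DDX60 has 2 and TLR3 has 1, and the MAVS and HELZ2 lines are empty.

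The genes whose levels over the 12 arrays were most like each member were listed by Pearson's r of normalized log2 values, as a description, since the arrays share the group differences. IFI6, SAMD9 and TENT5A were nearest to IFIH1 (r = 0.987, 0.978 and 0.976). HLA-E, PARP12 and PARP9 were nearest to RIGI (0.983, 0.978 and 0.976). HELZ2 lay nearest to PARP12, SP110 and KLF4 (0.992, 0.986 and 0.984), and ZNFX1 to KLF4, SP110 and PARP12 (0.984, 0.982 and 0.982). DDX60 lay nearest to TENT5A, CXCL10 and SAMD9 (0.967, 0.966 and 0.964), and TLR3 to DNAJA1, MLKL and SP100 (0.951, 0.942 and 0.941). Many of these are interferon-induced genes, such as the chemokine CXCL10 and the nuclear body proteins SP100 and SP110. MAVS was nearest to TMEM184B, CD27-AS1 and HACD4 (0.904, 0.870 and 0.852), and its r with the other 6 members ranged from -0.73 to -0.59.

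Changes in the rest of the pathway were counted by list, with the brightest probe of each gene. The lists, like the members, were chosen with earlier results of these data known, so the counts are a description. Of 14 tested cofactors and ligases of the RIG-I-like receptors, 3 were higher with Full, 5 with ECD and 3 with ICD, and 1 was lower with ECD, with median log2 changes of 0.12, 0.10 and 0.21. The median over all genes was 0.00 with Full, 0.02 with ECD and 0.03 with ICD. Of all genes 0.971%, 7.06% and 3.93% were called higher and 0.238%, 3.84% and 1.99% lower. EIF2AK2, the RNA-activated kinase PKR, was 4.22-fold higher with ECD and 1.73-fold with ICD (limma adjusted p = 6.8e-08 and 0.0044), and differed by 0.59 on the log2 scale with Full (adjusted p = 0.055). The ubiquitin ligase TRIM21 was 2.17-fold higher with Full, 3.55-fold with ECD and 1.58-fold with ICD (adjusted p = 4.6e-05, 5.4e-08 and 0.0051). TRIM25, the ligase that ubiquitinates RIG-I, was 1.57-fold higher with Full and 2.08-fold with ECD (limma adjusted p = 0.0025 and 5.1e-06), and differed by 0.21 on the log2 scale with ICD (adjusted p = 0.20). ZC3HAV1, the antiviral zinc finger protein ZAP, was 1.51-fold higher with Full and 1.43-fold with ICD by its brightest probe (adjusted p = 0.019 and 0.018), and differed by 1.11 on the log2 scale with ECD (adjusted p = 1.7e-05). Its other probes gave log2 changes of 1.23 and 1.80 with Full, 2.06 and 2.70 with ECD, and 0.98 and 1.48 with ICD. PQBP1, counted in this list, was 1.38-fold lower with ECD (limma adjusted p = 0.031). Whether it acts with the RIG-I-like receptors was not tested.

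Between MAVS and the interferon genes, 1 of 21 tested genes was higher with Full, 5 with ECD and 1 with ICD, and 0 were lower. The medians were 0.08, 0.13 and 0.07. Over all genes the shares called higher were 0.971% with Full, 7.06% with ECD and 3.93% with ICD. IRF7, the interferon-induced factor that amplifies the response, was the gene called in all 3 comparisons, at 3.57-fold with Full, 6.38-fold with ECD and 1.74-fold with ICD (limma adjusted p = 5.4e-08, 2.1e-10 and 0.00083, n = 3 each). A second IRF7 probe gave log2 changes of 1.73, 2.53 and 0.87. IRF3, its constitutive relative, differed from Empty by 0.22, -0.15 and -0.16 on the log2 scale with Full, ECD and ICD, and TRAF3, a ligase that MAVS recruits, by 0.06, 0.17 and -0.01 (limma adjusted p of 0.41 to 0.97). TBK1, the kinase that phosphorylates IRF3, was 1.46-fold higher with ECD (limma adjusted p = 0.028), and CHUK, a kinase of the NF-kB arm, 1.45-fold (adjusted p = 0.0048). TBK1 differed by -0.10 with Full and 0.28 with ICD (adjusted p = 0.79 and 0.26). IKBKE, the kinase related to TBK1, differed by 0.27 with Full, -0.14 with ECD and 0.05 with ICD (limma adjusted p = 0.19, 0.33 and 0.80). DDX3X, a helicase that binds TBK1 and IKBKE, was 1.23-fold higher with ECD (adjusted p = 0.048) and differed by -0.18 with Full and 0.29 with ICD (adjusted p = 0.37 and 0.072).

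Among 16 tested inhibitors of the sensors, 0 were called with Full by limma (3 higher and 1 lower at an unadjusted p under 0.05), while 2 were higher with ECD and 1 with ICD, with medians of 0.11, 0.10 and 0.04. For this list and the next, 7.06% of all genes were called higher with ECD and 3.93% with ICD, and 3.84% and 1.99% lower. The share of all genes at an unadjusted p was not computed, so those counts have no background. TNFAIP3, the ubiquitin-editing enzyme A20, was 1.92-fold higher with ECD (adjusted p = 0.0011). USP3, a deubiquitinase of RIG-I, was 1.29-fold higher with ECD and 1.38-fold with ICD (limma adjusted p = 0.024 and 0.011). Of 20 Toll-like receptor and adaptor genes only 7 entered. With Full 0 of them were called by limma (2 higher and 1 lower at an unadjusted p under 0.05), with ECD 2 were higher and 2 lower, and with ICD 1 was higher and 1 lower. The medians were 0.12, 0.15 and 0.27. UNC93B1, which carries TLR3 to endosomes, was 1.55-fold higher with ECD and 1.33-fold with ICD (adjusted p = 0.0014 and 0.026), though its second probe differed by 0.31 in both (adjusted p = 0.12 and 0.14). TICAM2, an adaptor of TLR4, was 1.27-fold higher with ECD (adjusted p = 0.042), and the kinase IRAK1 1.25-fold lower (adjusted p = 0.043). CNPY3, a chaperone for Toll-like receptors, was 1.66-fold lower with ECD and 1.59-fold with ICD (limma adjusted p = 0.00083 and 0.0031), and by its second probe -0.36 and -0.08 on the log2 scale. TICAM1, the adaptor of TLR3, differed by 0.16 with Full, 0.33 with ECD and 0.07 with ICD (limma adjusted p = 0.60, 0.11 and 0.78).

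Other helicases of the DDX, DHX and related families served as a comparison for the helicase members. Of 56 tested, 0 were called with Full by limma (6 higher and 7 lower at an unadjusted p under 0.05), 11 were higher with ECD and 1 was lower with ICD, with medians of 0.02, 0.16 and 0.10 on the log2 scale. For this list and the next, 7.06% of all genes were called higher with ECD, 3.93% higher with ICD and 1.99% lower with ICD. Counts at an unadjusted p again have no share of all genes beside them. Beside DDX60L, the called changes named by the rule with ECD were small, 1.37-fold for DNA2, a nuclease-helicase of DNA replication (adjusted p = 0.011; 0.18 on the log2 scale by its second probe), and 1.30-fold for DHX15 (limma adjusted p = 0.016). DHX34, a helicase of nonsense-mediated decay, was 1.39-fold lower with ICD (adjusted p = 0.034). RNA polymerase III, which is known to transcribe transfected AT-rich DNA into RNA that RIG-I binds, had 0 of 12 tested subunits called with Full by limma (2 higher and 0 lower at an unadjusted p under 0.05), 2 higher with ECD and 1 with ICD, with medians of 0.10, 0.13 and 0.16. POLR3A was 1.27-fold higher with ECD and 1.29-fold with ICD (adjusted p = 0.034 and 0.038), and its second probe differed by 0.21 and 0.14. POLR3G was 1.38-fold higher with ECD (adjusted p = 0.040), while the other probe gave -0.25.

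**Figure D5:**
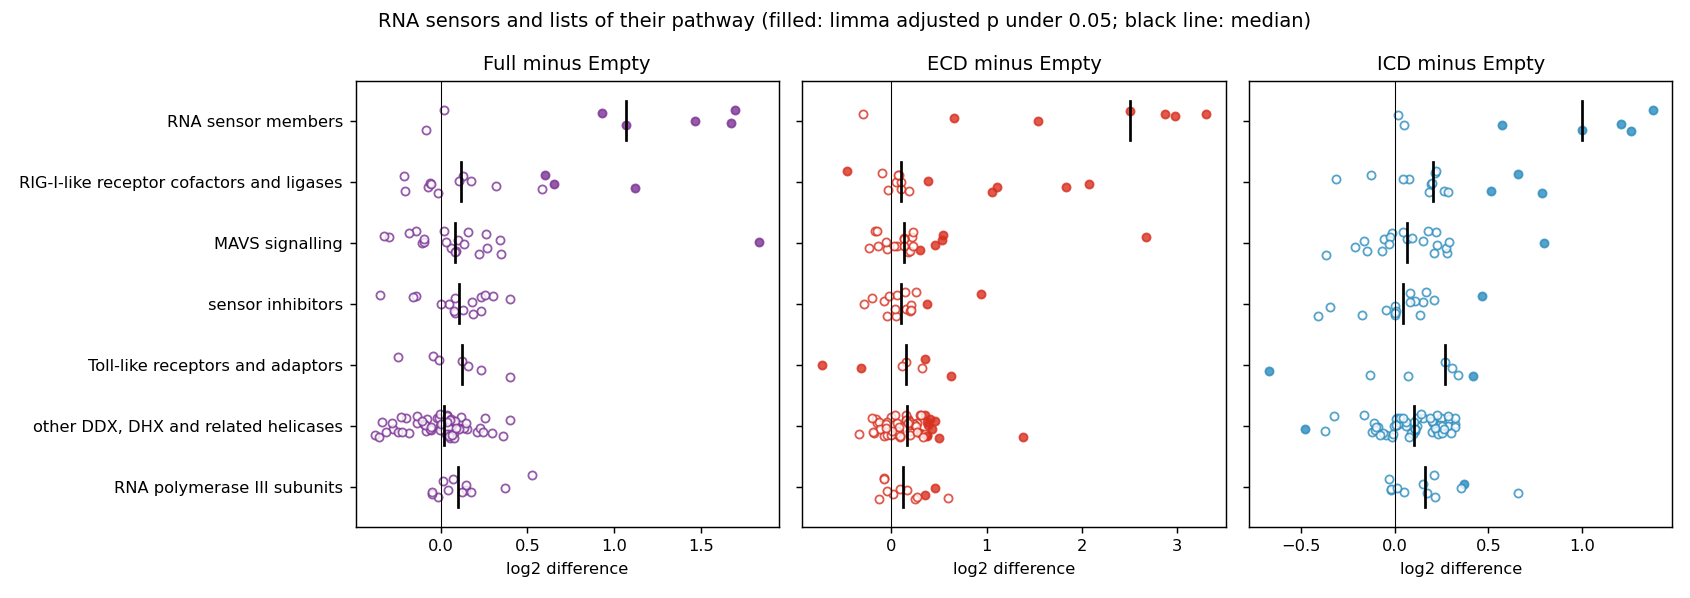
Log2 difference from Empty of each tested gene (brightest entering probe) in the RNA sensor group and in 6 lists of its pathway, for Full, ECD and ICD, with filled points at an adjusted p under 0.05 and a black line at the median. The sensor points reach 1.69 with Full, 3.30 with ECD and 1.38 with ICD, and IRF7 in the MAVS signalling list is the point furthest right among the other lists in each panel.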

How the data were processed

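For 12 arrays, total RNA of A549 cells was labelled with biotin and hybridized to single-colour bead arrays, per the labels' protocols. The authors deposited a linear intensity per probe and array, with no background subtraction visible in the values, and a detection p-value that sets each probe against the negative controls of its array. The deposited log2 values, for which processing is not given in the sources used here, equal quantile-normalized log2 intensities within 5e-09. Scale and centring are therefore known. Of 47323 probes, 30113 had 1 gene symbol in the platform annotation, 8 several and 17202 none, and 30074 were matched by Entrez identifier to RefSeq (GRCh38.p14).

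The neqc function of limma 3.58.1 (R 4.3.3) subtracted background by normexp, inferred from detection p-values, with an offset of 16, and then applied quantile normalization. Probes with a detection p under 0.05 throughout at least 1 group entered a single eBayes fit over 12 arrays (residual degrees of freedom 8, prior 6.79), two-sided, with Benjamini-Hochberg adjustment over 18728 probes. A gene in a list was represented by its brightest entering probe. The offset shrinks changes of dim probes. No set test was run, and the steps were tested on simulated data. The members and lists were chosen with earlier results of these data known. Named were all members, up to 3 called genes per list, comparison with Empty and direction, 8 fixed pathway genes and the 3 genes most like each member. DDX60L is named by that rule. Sequences came from RefSeq. Alternatives changed the correction and its offset, the scaling, the filter, the probes, the variance model or the groups fitted, added a replicate block, or left out 1 array. Plots used matplotlib 3.10.9 (Python 3.11.15). Among the arrays 0 columns were identical.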

Additional observations from a re-analysis of the deposited data

Results flagged for a closer look

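For 6 genes the difference between Full and ECD departed from that between ICD and Empty, by the test of measured minus summed changes in the limma fit (n = 3 arrays in each of 4 groups). On the log2 scale the departure was -2.66 for RIGI, -2.99 for IFIH1, -0.69 for TLR3, -2.44 for DDX60, -2.51 for HELZ2 and -1.17 for ZNFX1. With TLR3 only the ECD arrays were above background, so its value measures no departure from a sum. The cause of the departures was not tested.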

How the results depend on the processing

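Member calls numbered 5 for Full and 5 for ICD against Empty under every alternative run. For ECD against Empty there were 6, but 7 with no detection filter (DHX58 added), 7 with those groups fitted alone (MAVS added, lower) and 5 at a detection p under 0.01, where TLR3 did not enter. For ECD against ICD there were 6, but 5 without background correction, with the authors' values (TLR3 lost in both) and at a detection p under 0.01. For Full against ECD and for the departure from the sum there were 6 each, but 5 at a detection p under 0.01. With 1 array left out these counts were 5 for Full and ICD against Empty and 6 for the others. Between Full and ICD 0 members were called, and 2 without background correction, with the authors' values, with an offset of 50, at a detection p under 0.01 and with a trended, robust variance. With 1 array left out there were 0 to 2 in this comparison. Of 812 single probe values under an alternative, 795 kept their side of the threshold, 15 passed it newly, 2 lost it (TLR3 between ECD and ICD) and 0 reversed. A change of sign counted as reversed only where the main or the alternative value was called. Uncalled values did change sign, as for DDX60 between Full and ICD, at 0.07 with all arrays and -0.17 without Full replicate 2. The authors' values equal the uncorrected ones within 5e-09, so these 2 alternatives are 1 analysis. Each result under them, the TLR3 loss included, is therefore counted again in this tally.

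Counts of all called probes moved more. For ICD against Empty, with 1220 calls, there were 2064 with uncorrected or the authors' values, 1938 with an offset of 50, 620 with median scaling and 1849 with a trended, robust variance. For Full against Empty, with 201, there were 316 with uncorrected or the authors' values, 119 with median scaling and 81 with those groups fitted alone. For Full against ICD, with 876, the same settings gave 1809, 299 and 25, and an offset of 50 gave 1689, a detection p under 0.01 gave 1328 and the robust variance 1623. Fitting those groups alone gave 3284 for ECD against Empty in place of 2120, and 1871 for Full against ECD in place of 3332. Leaving out 1 array gave 99 to 554 for Full, 765 to 1310 for ECD and 416 to 706 for ICD against Empty, 169 to 232 for ECD against ICD (311 with all), 1742 to 4393 for Full against ECD, 193 to 1872 for Full against ICD and 3149 to 5034 for the departure from the sum (4307 with all). The highest of these counts came without Full replicate 2. They were 554 for Full against Empty, 1872 for Full against ICD, 4393 for Full against ECD and 5034 for the departure. Each was above the count with all arrays. The causes were not tested.

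With median scaling the median of all probes was 0.11 higher with ECD than with Empty, and calls split into 2457 higher and 211 lower, against 1081 and 1039. Full against Empty then gave 98 and 21 (144 and 57), ICD against Empty 371 and 249 (598 and 622), ECD against ICD 341 and 22 (212 and 99), Full against ECD 287 and 3501 (1452 and 1880), and the departure 738 above and 3458 below (2054 and 2253). The members' directions held, and IFIH1 differed by 3.43 with ECD under that scaling. Same-numbered arrays of different groups had deviations correlated at -0.09 to 0.11 over 18 pairs, 1 of them above 0.1, with a median of 0.024. For other-numbered arrays the median was -0.012 over 36 pairs. Arrays correlated best with their own number in 22 of 36 choices, more often than a random pick among 3 arrays would give. Pairing is not stated in the labels, and the main fit did not use it. With a replicate block the calls were 186 for Full, 2070 for ECD and 1127 for ICD against Empty, 292, 3333 and 766 between constructs and 4300 for the departure, with the member counts unchanged at 5, 6, 5, 6, 6, 0 and 6. Signal near background limits DHX58, TLR3 and the second MAVS probe.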
